A study of Homo sapiens with 2 samples.

Results

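The genes described here encode proteins of the small subunit of the cytosolic ribosome. They were the 28 protein-coding entries RPSA, RPS2, RPS3, RPS3A, RPS4X, RPS6, RPS7, RPS9, RPS10, RPS12, RPS13, RPS14, RPS15, RPS15A, RPS16, RPS18, RPS19, RPS20, RPS21, RPS23, RPS24, RPS25, RPS26, RPS27, RPS27A, RPS28, RPS29 and FAU. Peaks were assigned to them by the Ensembl gene identifier that each peak carries, without the pseudogenes of the same names, and they made up 28 of the 20033 gene entries with peaks. Other genes of the subunit were not analysed here. The members carried 310 peaks in replicate 1 and 293 in replicate 2.

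The study asked which stretches of RNA associate with CCR4-NOT, the protein complex that shortens poly(A) tails and so starts the decay of most mRNAs. Both libraries belonged to 1 group, which the labels call TRACER without spelling the name out. HEK293T, a human embryonic kidney line that carries the SV40 large T antigen, was kept with doxycycline at 3 ug/mL for 24 h, a drug used to switch on inducible transgenes. The labels do not name the transgene or clone, nor say whether the replicates were separate cultures. Cytoplasmic RNA was made into small RNA libraries. No untreated, input or unmodified library was analysed here, so no comparison between conditions exists, mRNA abundance and association cannot be told apart, and each value below is a description of these libraries with the spread over n = 2.

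The small subunit binds the mRNA, threads it through its channel and pairs its codons with transfer RNAs. It is described by its head, its platform and its body. The messages of ribosomal proteins are short, abundant and heavily translated, and most vertebrate ones open with a C and a run of pyrimidines right at the cap. This terminal oligopyrimidine motif, or TOP motif, lets growth signals through the mTOR pathway set how much of them is translated. The genes also have processed copies in the genome, most of which are pseudogenes. Their number differs widely, from 1 annotated pseudogene for RPS9, RPS13 and RPS25 to 74 for RPSA.

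The strongest coding peaks are shown first, since most of the reads on these messages lay in coding sequence. For the 8 members with the most reads, the 30 bases around the summit of the coding peak with most reads among those found in both libraries are given 5′ to 3′ on the coding strand, from the GENCODE 29 transcripts on GRCh38. Capitals mark the narrow summit interval that the authors' peak file gives for replicate 1.
RPS3: ggctttccagaggGCAGtgtagagctttat
RPS6: ctgctgacgctcTGGGtgaagaatggaagg
RPS4X: gagagacaaaagACTGgcggccaaacagag
RPS14: aaggaaaagaagGAAGaacaggtcatcagc
RPS24: cagaatgaagaaaGTCAgggggactgcaaa
RPS15: gcaagatggcagaAGTAgagcagaagaaga
RPS23: agttctggttgcTGGAtttggtcgcaaagg
RPS19: gacaaagagatctGGACagaatcgccggac

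The window of RPS3, a protein at the mRNA entry channel, spans an exon junction. Its peak lay at chr11:75401649-75401728 on the plus strand with 232 reads in replicate 1, and at chr11:75401691-75401734 with 217 in replicate 2. The windows of RPS6 and RPS15 also span junctions. In RPS6, the subunit protein that S6 kinases phosphorylate, the peak at chr9:19379485-19379526 on the minus strand held 153 and 194 reads. In RPS15, whose protein reaches towards the decoding site, the peak at chr19:1438806-1438844 on the plus strand held 178 and 158 reads with its summit 9 and 8 nt from the start codon. The other windows lay within 1 exon. They were chrX:72272681-72272710 on the minus strand for RPS4X (108 and 101 reads), chr5:150447686-150447715 on the minus strand for RPS14 (183 and 148) and chr10:78037250-78037279 on the plus strand for RPS24 (245 and 248). The window of RPS23, which lines the decoding centre, was chr5:82276215-82276244 on the minus strand, with 128 and 132 reads. That of RPS19, the gene most often mutated in Diamond-Blackfan anaemia, was chr19:41869722-41869751 on the plus strand, with 131 and 109 reads. The exact 30 bases recurred in 1 annotated pseudogene for RPS3, RPS24 and RPS23 and in 2 for RPS4X and RPS14, and in no other gene entry for RPS6, RPS15 and RPS19.

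All 28 members had peaks in both libraries, as did 85.9% of the protein-coding genes with a peak in either. The members held 16541 of 1585446 reads in peaks in replicate 1 and 16090 of 1663907 in replicate 2. That was 1.04% (95% exact binomial interval 1.03 to 1.06) and 0.967% (0.952 to 0.982) of all peak reads, or 1.01% ± 0.054 (SD, n = 2). These intervals cover counting error only. A sum over peaks is not a sequencing depth, because only reads inside called peaks enter it and a read on the edge of neighbouring peaks, or on a position listed under several genes, can be counted again. The median member held 519.5 reads in replicate 1 and 525 in replicate 2, against 32 and 40 for the protein-coding genes with peaks in that library.

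RPS3 stood highest, with 1799 reads in replicate 1 and 1633 in replicate 2. RPS6 followed with 1205 and 1110 reads. RPS4X, the X-linked copy of a body protein, held 1121 and 997. RPS6 stood above RPS4X in each library, but their ranges over the libraries overlapped. RPS14, a platform protein whose loss of 1 copy marks the 5q- syndrome, held 957 and 1001 reads. Its range overlapped that of RPS4X, so RPS4X and RPS14 could not be ordered. RPS24 held 824 and 995, which reaches into the range of RPS14, so these neighbours could not be ordered. RPS15 (822 and 812 reads), RPS23 (739 and 711) and RPS19 (691 and 737) were the other members with most reads, by the mean of both libraries, and the ranges of RPS23 and RPS19 overlapped. RPS2, with 751 and 630 reads, overlapped both of them and could not be ordered against them. RPS7 (616 and 663) and RPSA (644 and 544) came next, again with overlapping ranges. These sums include reads on small nucleolar RNAs, short RNAs from introns that are described below. They were 274 and 199 reads in RPSA, 171 and 124 in RPS12, 144 and 108 in RPS2 and 139 and 101 in RPS3. The place of RPSA thus rests in part on them, and the order was not redrawn without them.

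At the lower end stood RPS9, RPS27 and RPS26. RPS9, a body protein near the mRNA entry, held 146 and 139 reads. RPS27, a zinc-finger protein of the platform side, held 148 and 123, so RPS9 and RPS27 could not be ordered. RPS26, which touches the mRNA at its exit, held 26 reads in 6 peaks in replicate 1 and 10 reads in 3 peaks in replicate 2. These counts were far below every other member in both libraries. The other 14 members lay between 298 reads (RPS15A, replicate 1) and 577 (RPS13, replicate 1).

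**Figure D1:**
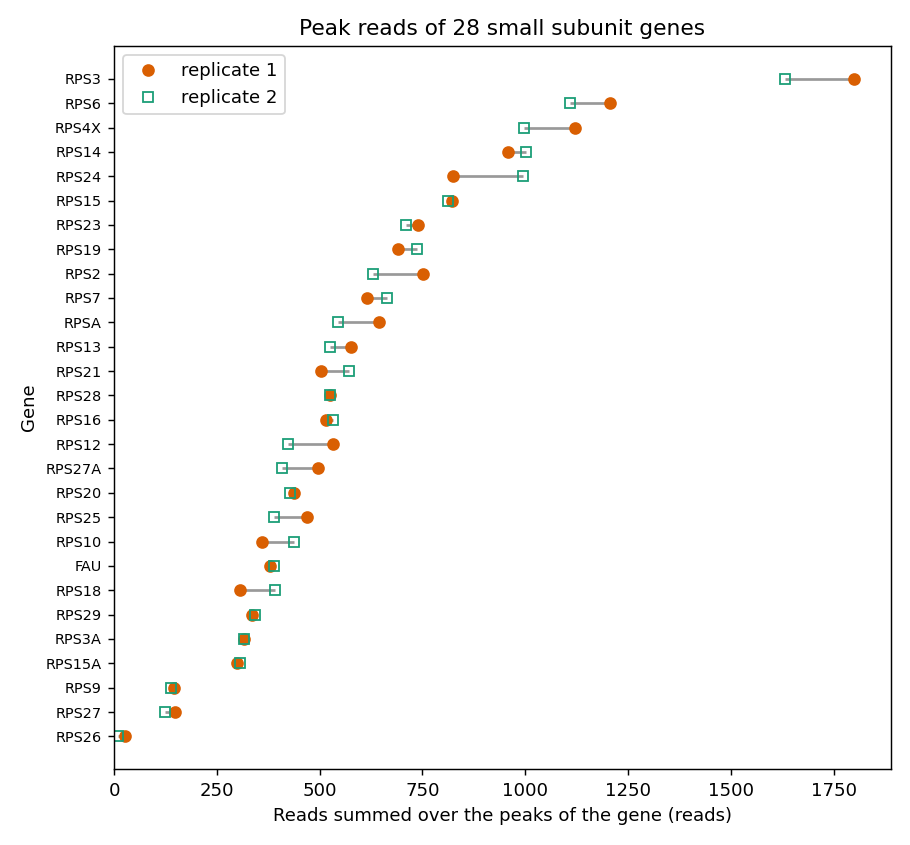
Reads summed over the peaks of each gene (x axis, reads) for the 28 genes (y axis), with a filled circle for replicate 1, an open square for replicate 2 and a line joining them. RPS3 lies alone at 1799 and 1633 reads, RPS26 lies at 26 and 10, and most pairs of points lie close together. The sums include reads on small nucleolar RNAs in introns.

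The libraries ranked the members alike. After scaling to total peak reads, 22 members were within 1.25-fold and 27 within 1.5-fold between libraries. RPS26 alone passed 2-fold, at a ratio of 0.366 (replicate 2 over replicate 1, a log2 ratio of -1.45), while 18.2% of the protein-coding genes with at least 10 reads did so. RPS26 rested on few reads, and with 1 library on each side this ratio has no test. The median member held 519.5 and 525 reads, against 32 and 40 for the protein-coding genes with peaks in that library. The part of read number in the count past 2-fold was not tested. Across the 28 genes, which are not independent replicates, Spearman's rho between the libraries' reads was 0.959 and Pearson's r of log2 reads was 0.981. Both libraries shared the cell line, protocol and gene lengths.

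Single peaks recurred as well. Of the members' peaks, 92.6% (95% exact interval 89.1 to 95.2) in replicate 1 shared at least 1 nt on the same strand with a peak of replicate 2, where 60.6% of all peaks of replicate 1 did. In the other direction it was 94.5% (91.3 to 96.8), where 55.9% of all peaks of replicate 2 did. Member peaks were stronger than most: their median held 43.5 and 44 reads, against 5 and 6 over protein-coding genes. Among peaks with at least 50 reads, 141 of 141 and 134 of 134 member peaks recurred, beside 98.6% and 99.0% of all such peaks. Among those with 10 to 49 reads, 88.5% and 93.2% recurred, beside 91.3% and 87.1%. Of the few member peaks with 3 to 9 reads, 7 of 12 (58.3%, interval 27.7 to 84.8) and 7 of 13 (53.8%, 25.1 to 80.8) recurred, beside 47.8% and 41.3%.

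Per length of coding sequence, the order changed somewhat. RPS3 led with 2137 and 1979 coding peak reads per kb of coding sequence (2058 ± 112, SD, n = 2). RPS14 (1779 and 1874 reads per kb), RPS24 (1617 and 1957), RPS15 (1890 and 1621) and RPS21 (1622 and 1851) followed by the mean of both libraries. RPS23 (1723 and 1543), RPS29 (1536 and 1667) and RPS19 (1515 and 1634) reached into the ranges of several of these, so the order within this group was not settled. RPS21, a small platform protein, thereby stood among the densest messages although it held only 504 and 571 reads in all. RPS9 (222 and 198 reads per kb), RPS27 (226 and 135) and RPS26 (66.7 and 17.4) stood lowest. Over genes with at least 10 mRNA reads, the members' median was 961 and 906 coding reads per kb, beside 927 and 981 for 45 of 46 large subunit genes. For 29 genes of the mitochondrial small subunit, whose messages come from nuclear genes, it was 90.8 and 129, and for all protein-coding genes 19.9 and 23.3. The medians of the small and large subunit overlapped over the libraries.

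By place in the subunit, the 12 head genes had a median of 506 and 432.5 reads, with RPS3 the highest. The 10 body genes had a median of 677.5 and 646.5 reads, from 146 and 139 in RPS9 up to 1205 and 1110 in RPS6. The 6 platform genes had a median of 410.5 and 429.5 reads, from 26 and 10 in RPS26 up to 957 and 1001 in RPS14. No test was made between these places, whose genes are not replicates.

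A median of 65.4% of a member's coding bases lay under peaks of both libraries, from 17.4% in RPS26 to 100% in RPS29, a short zinc-binding protein of the head. In 17 members this was over 50% of the coding sequence, where 2.22% of the protein-coding genes with peaks in both libraries reached it. RPS24 (92.5%), RPS19 (92.0%), RPS27A (90.2%), RPS13 and RPS14 (86.1% each) and RPS3 (84.9%) followed RPS29. RPS9 (22.7%), RPS27 (25.4%), RPSA (27.9%) and RPS3A (30.9%) stood just above RPS26. The median was 66.9% in the large subunit genes, 24.5% in the mitochondrial small subunit genes, 6.94% in 19 factors that assemble the small subunit and 2.12% in all protein-coding genes. Member coding sequences were short, with a median of 436.5 nt against 1383 nt, and the part of length and read number in this coverage was not tested.

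**Figure D2:**
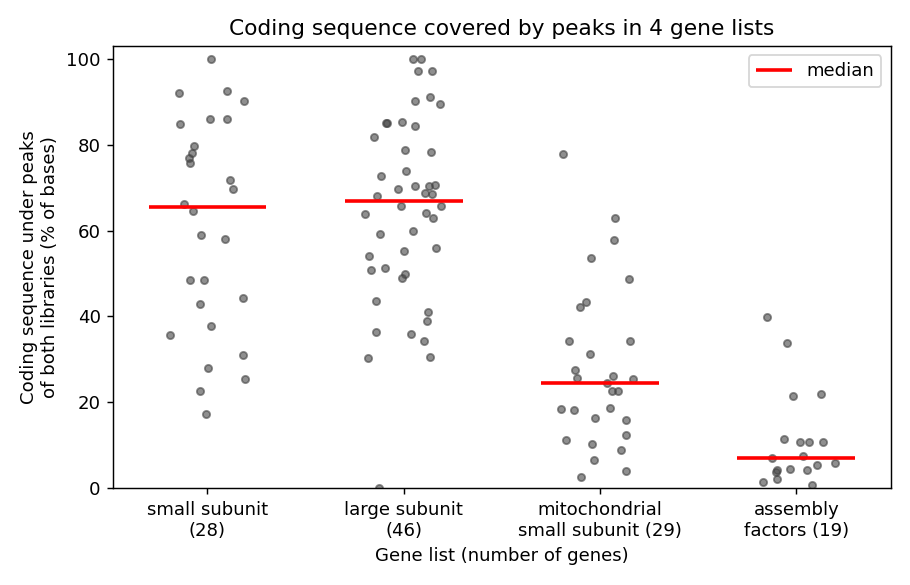
Percent of coding bases under peaks of both libraries (y axis) in 4 gene lists (x axis), with 1 point for each gene and a red line at the median. The small and large subunit genes have medians of 65.4% and 66.9%, above 24.5% for the mitochondrial small subunit genes and 6.94% for the assembly factors.

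Peaks of both libraries lay on the start codon in 19 members (67.9%), beside 9.49% of protein-coding genes. They lay on the stop codon in 11 (39.3%), beside 5.27%. The median member had 65.4% of its coding bases under such peaks, and whether these codons differed from other bases was not tested. Among the large subunit genes the start codon was under such peaks in 28 of 46 and the stop codon in 19. RPS3, RPS7, RPS13, RPS14, RPS15, RPS16, RPS18, RPS19, RPS23 and RPS24 were among the members with a covered start codon. The stop codon was covered in RPS4X, RPS13, RPS14, RPS19, RPS21, RPS23, RPS24, RPS25, RPS27, RPS28 and RPS29.

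**Figure D3:**
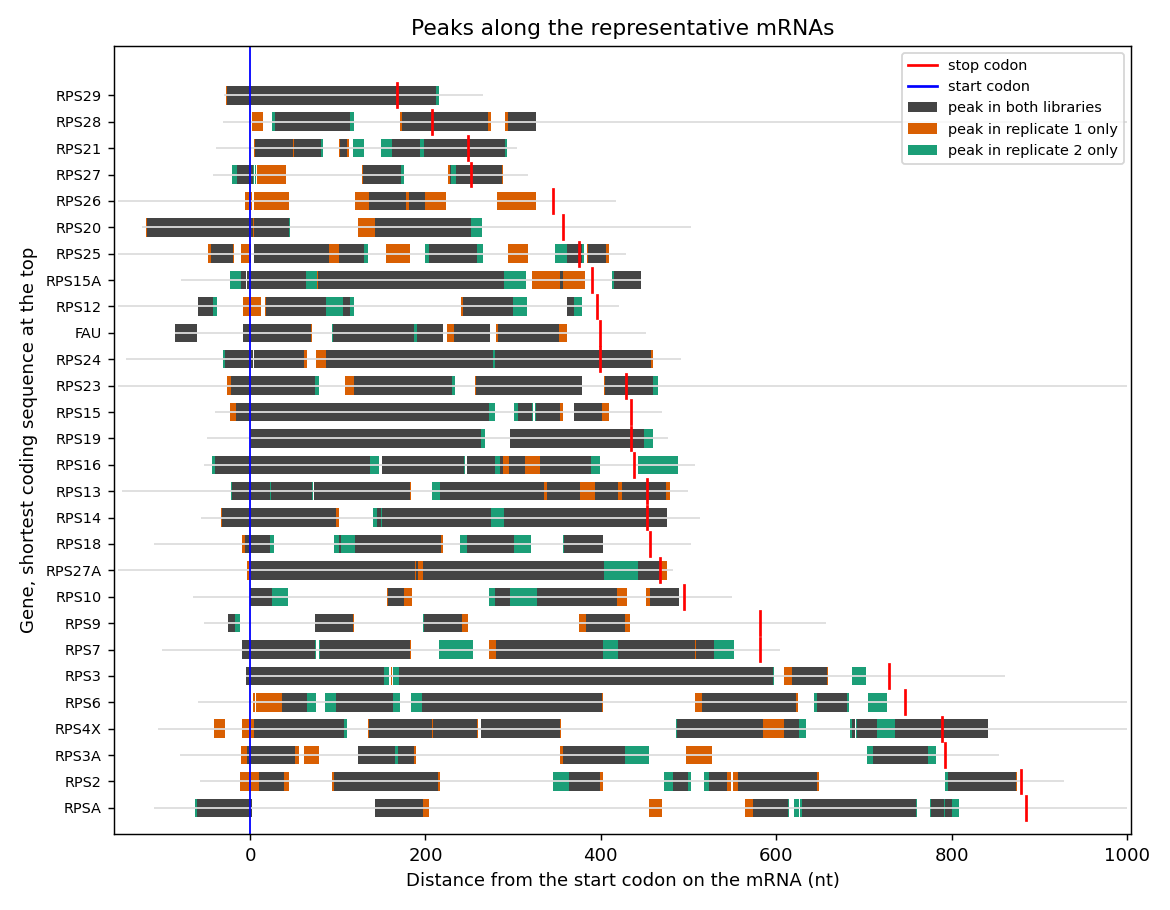
Peaks along the representative mRNA of each gene (y axis, shortest coding sequence at the top) against the distance from the start codon (x axis, nt, cut off at -150 and 1000). Dark bars are bases under peaks of both libraries, orange and green bars those under peaks of 1 library, the blue line is the start codon and red ticks are stop codons. Dark bars fill the whole coding sequence of RPS29 and only parts of RPSA, RPS2, RPS3A, RPS9 and RPS26.

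The strongest coding summits lay within 10 nt of each other in the 2 libraries in 22 members, which were 22 of the 27 members with at least 10 reads on the mRNA in each library, where 31% of such genes did. RPS24 (349 nt from the start codon in both) and RPSA (699 nt in both) had identical positions. RPS14 (32 and 31 nt), RPS25 (32 and 30 nt), RPS12 (34 and 31 nt) and RPS21 (25 and 24 nt) had theirs near the start of translation. RPS3A (735 and 738 nt) and RPS19 (393 and 395 nt) had theirs near the end. The strongest summit moved to another peak in RPS4X (by 291 nt), RPS6 (171 nt), RPS23 (151 nt), RPS13 (132 nt) and RPS16 (105 nt). In RPS26 the strongest coding summit of replicate 1, on a peak of 7 reads, lay 165 nt from the start codon, and 2 peaks of 3 reads were tied in replicate 2, at 155 and 182 nt. RPS26 was counted by the latter, and so as apart. On a scale from 0 at the start codon to 1 at the stop codon, the median position was 0.379 and 0.425, beside 0.421 and 0.437 over all protein-coding genes. The position of the strongest summit thus varied from gene to gene, from 0.021 in RPS15 to 0.987 in RPS13 in replicate 1.

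The bases around these summits were rich in G and poor in C. In the 30 bases around the strongest coding summit, G made up 34.0% and 34.8% of the members' bases, against 27.6% and 27.7% of their coding sequences. C made up 19.3% and 18.3%, against 24.4% and 24.3%. The same was seen over all protein-coding genes, where G was 35.4% and 36.2% against 27.0% in both and C was 18.2% and 18.1% against 25.3% and 25.4%. G and C together stood higher in the window than in the coding sequence in 14 of 28 members in replicate 1 and 14 of 27 in replicate 2.

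For the regions, all reads of a peak were placed by its summit. By region, 83.2% and 83.5% of the members' reads lay in the coding sequence of the representative transcript, the principal complete isoform of each gene. The 5′ UTR held 5.46% and 5.64% and the 3′ UTR 4.04% and 4.43%, and 7.29% and 6.48% lay off that transcript. The median member had 93.9% and 91.4% of its mRNA reads in coding sequence, beside 92.2% and 93.0% for the large subunit, 89.4% and 91.7% for the mitochondrial small subunit and 68.4% and 71.0% for all protein-coding genes. In 26 of 28 members over 50% of the mRNA reads were coding in both libraries. Of the 27 members with at least 10 reads on the mRNA in each library, 25 did so, where 61.9% of such genes did. The exceptions were RPS20 and RPS27. All 28 had a coding peak found in both libraries, beside 66% of protein-coding genes.

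These shares depended on how isoforms were treated. When a base was called 3′ UTR wherever any coding isoform had it as such, the 3′ UTR held 2162 and 2369 of the members' reads, against 669 and 713 on the representative transcript. With coding sequence of any isoform given priority it held 759 and 825. The median coding share was 77.8% and 78.1% where the 3′ UTR took priority and 88.6% and 87.3% where coding sequence did. RPS21 showed this most, with 57.1% and 70.8% of its reads in a 3′ UTR of some isoform but 19.8% and 19.3% on the representative transcript. RPS3A had 30.8% and 36.1% under the any-isoform rule and none on the representative transcript. The values below follow the representative transcript.

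**Figure D4:**
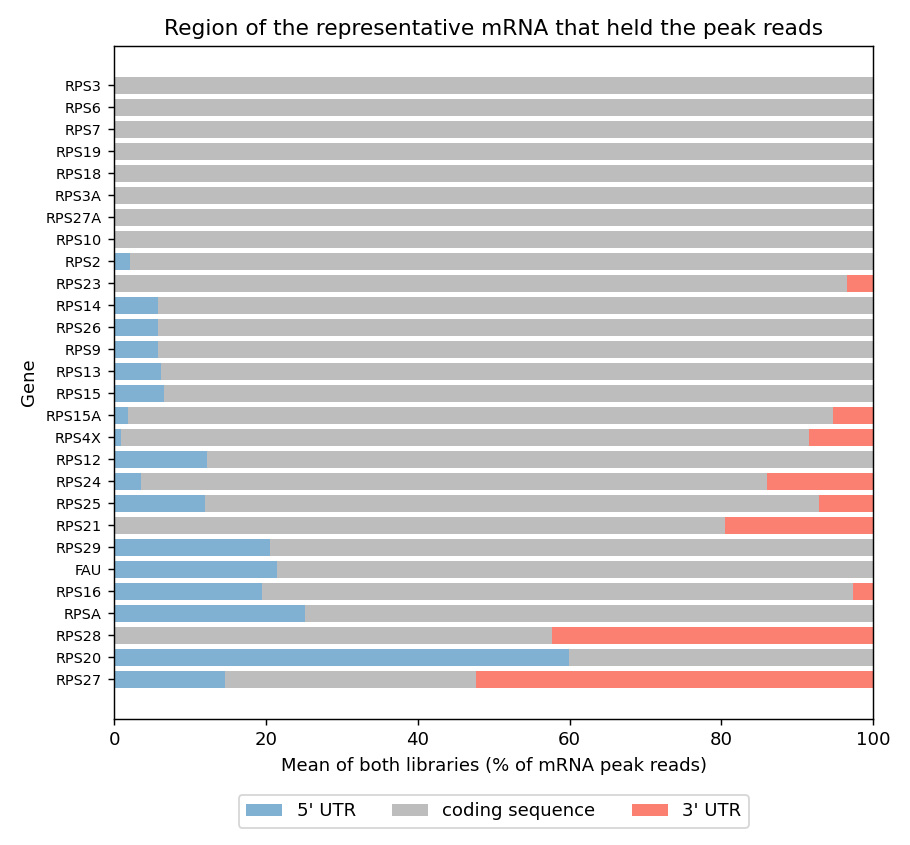
Share of each gene's mRNA peak reads in the 5′ UTR (blue), coding sequence (grey) and 3′ UTR (red) of the representative transcript (x axis, %, mean of both libraries) for the 28 genes (y axis), ordered by the coding share. Coding sequence takes the largest part except in RPS20, whose 5′ UTR is largest, and RPS27, whose 3′ UTR is largest.

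In the 3′ UTR, where elements that recruit CCR4-NOT are best known, 7 members had a peak found in both libraries, beside 43% of protein-coding genes. Under the any-isoform rule the count was 18, beside 50.3%. The median 3′ UTR of the members was 58 nt and that of all protein-coding genes with peaks 868 nt, and the part of this length in the count was not tested. Taken per gene, the median share of reads in the 3′ UTR was 0% in both libraries for the members and 19.7% and 17.6% for all protein-coding genes.

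RPS28, a small head protein beside the mRNA exit, held the most 3′ UTR reads, 236 and 207, or 45.0% and 39.5% of its mRNA reads. These fell in 4 neighbouring peaks in each library. The peak nearest the stop codon, at chr19:8322076-8322092 on the plus strand, held 79 reads in each library. The next peak, at chr19:8322272-8322293, held 74 and 75 reads. RPS27 had a single 3′ UTR peak of 72 and 69 reads at chr1:153992074-153992126 on the plus strand, which was 48.6% and 56.1% of its mRNA reads. Its summit lay 54 and 55 nt from the end of the mRNA. This one peak was the largest of RPS27, which had few reads elsewhere. Of its coding 25-base stretches, 95.2% recur in 5 or more other gene entries, as described below. The part of this shared sequence in the 3′ UTR share was not tested. RPS24 had 121 and 119 reads at chr10:78040632-78040684 on the plus strand (15.3% and 12.7% of its mRNA reads). RPS21 had 100 and 110 reads at chr20:62388457-62388505 on the plus strand (19.8% and 19.3%). RPS4X had 92 and 86 reads just past its stop codon, at chrX:72272621-72272669 on the minus strand (8.23% and 8.63%). The peaks of RPS25 (35 and 27 reads) and RPS15A (13 and 18 reads) were smaller. RPS16 had a 3′ UTR peak in replicate 2 only, with 28 reads. RPS23 had a 3′ UTR summit in replicate 2 only (49 reads), and the overlapping peak of replicate 1 (51 reads) had its summit in coding sequence. The other 19 members had no peak summit in the 3′ UTR of the representative transcript in either library. The members with the lowest share were thus tied at 0. Peaks with a coding summit could still reach into the 3′ UTR, as those of both libraries did in RPS13, RPS14, RPS19 and RPS29.

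The sequence element of the Pumilio proteins, which bring CCR4-NOT to mRNAs, was searched as TGTANATA on the coding strand of the representative mRNA. It was present once each in the 3′ UTR of RPS29 and RPS6 and in no other member. That is 7.14% of members, beside 28.8% of 11193 protein-coding genes with peaks in both libraries. The members' 3′ UTRs were shorter (median 58 nt against 868 nt), and the part of this length was not tested. Neither of these 2 copies lay under peaks of both libraries, beside 865 of 5112 copies in those protein-coding genes. The search finds letters, not binding sites.

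In the 5′ UTR, 12 members had a peak found in both libraries, beside 20.8% of protein-coding genes. The 5′ UTR held 903 and 907 of the members' reads, in 15 and 14 members. Under the any-isoform rule it held 1304 and 1274, in 20 members in each library. Repeated peaks in the 5′ UTR of other isoforms, as in RPS3, RPS7, RPS10 and RPS19, lay off the representative transcript. In RPS3, 94 and 66 of these reads lay on SNORD15A, a small nucleolar RNA described below. The any-isoform sums of the 5′ UTR thus include reads on that small RNA. RPS20, a head protein that is modified when ribosomes collide, stood apart. Its 5′ UTR held 250 and 243 reads, or 60.1% and 59.7% of its mRNA reads, while its coding sequence held 39.9% and 40.3%. Of 3 neighbouring peaks, the strongest had its summit 23 and 24 nt before the start codon, with 127 and 119 reads. RPSA, the platform protein also known as the laminin receptor, had 99 and 81 reads there (26.8% and 23.5%). FAU encodes the body protein eS30 fused to a ubiquitin-like protein, and had 81 reads in each library (21.3% and 21.5%). RPS16 had 96 and 108 reads (18.6% and 20.3%), and RPS29 had 77 and 62 (23.0% and 18.1%). The 108 reads of RPS16 were 1 peak that also spanned the place of a coding peak of 64 reads in replicate 1. Its 2 values thus come from peaks that were split differently. The remaining members with a repeated 5′ UTR peak held less. They were RPS14 (57 and 44 reads), RPS25 (71 and 34), RPS12 (39 and 41), RPS13 (31 and 32), RPS24 (27 and 35), RPS27 (19 and 20) and RPS9 (7 and 8). RPS15 had a 5′ UTR summit in replicate 2 only (107 reads), 1 nt before its start codon, and in replicate 1 the peak at that place had its summit in coding sequence.

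The start of the message was set against the RefSeq start sites, which were given for 25 of the 28 members on GRCh38.p14, all but RPS2, RPS15A and RPS20. The starts below are those of the 6 members with the largest share of reads within 30 nt of the start site, with 10 bases before the start in lower case and the first 15 bases of the message in capitals.
RPS15: aggcgcggacCAAAGCGATCTCTTC
RPS16: ccctagctttCCTTTTCCGGTTGCG
FAU: tcgcttcttcCTCTTTCTCGACTCC
RPS14: ccctcccactCTCTCTTTCCGGTGT
RPS25: gcagcgcttcCTTTTTGTCCGACAT
RPS3: cgagccacttCCTTTCCTTTCAGCG

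A TOP start was searched as a C at the first base followed by 4 bases that are each C or T, on the transcribed strand. It was present in 18 of 25 members (72%), beside 4.07% of 35116 RefSeq promoters and 5.63% of the genes with peaks in both libraries. Of the starts shown, that of RPS15 does not have it at the listed base and the other 5 do. A peak of both libraries lay within 30 nt of the start site in 16 of 25 members, beside 7.3% of genes. RPS15 had the most reads in these peaks, with 131 and 107. RPS16 followed with 46 and 108 reads, a gap that goes with how its peaks were split, since 1 peak of replicate 2 spanned 3 peaks of 46, 50 and 64 reads in replicate 1. FAU had 59 and 51. RPS14 (57 and 44), RPS25 (52 and 34) and RPS3 (43 and 37) were the next. RPS6, RPS18 and RPS21 have the motif but no reads within 30 nt, and RPS15 has reads in both libraries without the motif. For genes with several RefSeq starts, such as RPS27A, the first listed was used. In RPS29 the listed start lay 12337 nt before the first peak of replicate 1, so it is not the start of the message covered by peaks. The motif and the peaks near the start are described side by side, and their relation was not tested.

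Many members share their sequence with copies elsewhere in the genome, which touches how reads could be placed. The labels of the deposited files carry the settings multimap 5, score 10 and mismatch 0.6, and what each did is not given in the sources used here. Every 25-base stretch of each coding sequence was therefore looked up in the transcripts of all other gene entries. Entries that overlap a member at its own place count among these, so a match need not be a copy elsewhere. Stretches found in no other entry (3004 positions in 23 members) lay under peaks of both libraries in 74.7% of positions. Those found in 1 to 4 other entries (6033 positions) did so in 70.1%. Those found in 5 or more (3875 positions) did so in 30%.

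The same held within genes. Of 12 members with at least 50 positions of each kind, 11 had a lower share under peaks of both libraries where the sequence recurred in 5 or more entries. In RPS10, a head protein modified at stalled ribosomes, the share was 90.2% elsewhere and 16.9% there. In RPSA it was 85.3% and 17.1%, in RPS3A 57.4% and 21.6%, and in RPS2 73.3% and 28.8%. RPS24 was the exception, with 91.5% and 97.1%. For RPS26 all of the coding sequence and for RPS27 95.2% recurred in 5 or more entries, so these members of low density had almost no rarely shared sequence. RPS9 also stood low, at 222 and 198 coding reads per kb. Of its 25-base stretches, 0% recurred in 5 or more entries and 66.1% in at least 1. The cause of these low densities was not tested. Across the 28 genes, Spearman's rho between the coding density (mean of both libraries) and the widely shared percentage was -0.60, given as a description, since the genes share libraries and length enters the density.

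**Figure D5:**
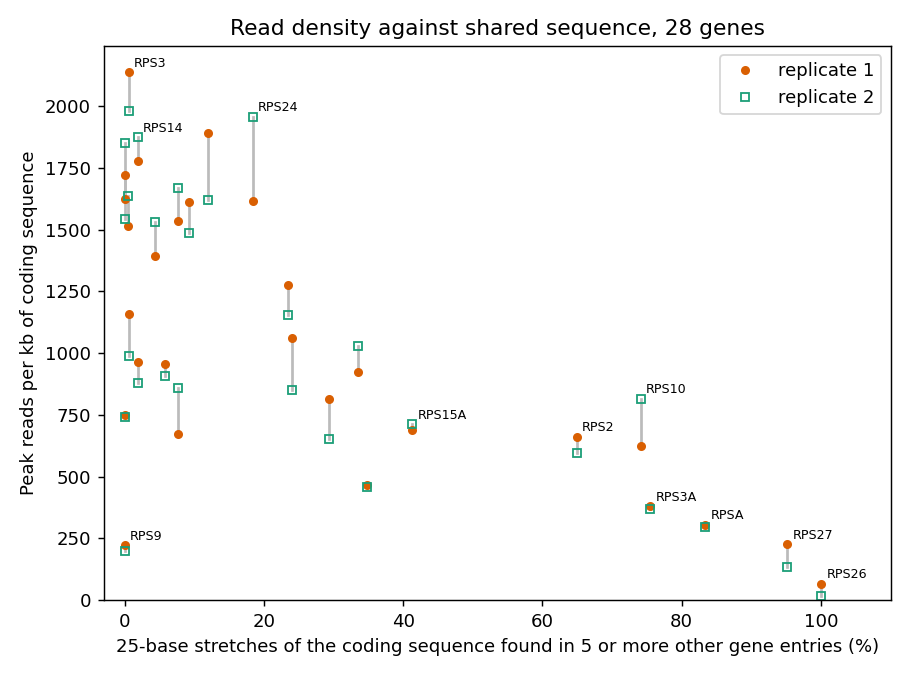
Coding peak reads per kb of coding sequence (y axis) against the percent of 25-base stretches of that coding sequence found in 5 or more other gene entries (x axis) for the 28 genes, with orange circles for replicate 1, open green squares for replicate 2 and grey lines joining the libraries. RPS26 and RPS27 lie at the lower right, RPS3 and RPS14 at the upper left, and RPS9 at the lower left.

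The copies themselves carried peaks. GENCODE 29 lists 394 pseudogenes named after the members, of which 116 in replicate 1 and 113 in replicate 2 had peaks. Their peaks held 5383 and 5344 reads, or 32.5 and 33.2 for every 100 member reads (32.9 ± 0.47, SD, n = 2). For RPS3A, the copies held more reads than the gene, with 574 and 611 reads or 181 and 194 per 100. Copies of RPS2 held 791 and 727 reads (105 and 115 per 100) and those of RPS27A, a ubiquitin fusion, 475 and 381 (95.6 and 93.2 per 100). Copies of RPS4X held 774 and 805 reads, on 17 of 23 annotated pseudogenes in each library. The copies of RPS9, RPS26 and RPS27 held none in either library. For RPS26, with 30 annotated pseudogenes, and RPS27, with 15, neither the gene nor its copies thus carried many reads. Whether a read on a copy came from the gene's mRNA was not tested, and values of members with close copies are uncertain to that extent.

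Reads off the representative transcript, 1206 and 1042 in all, lay partly on small nucleolar RNAs that sit in introns of the members. These short RNAs guide the modification of ribosomal RNA and are cut out of the spliced introns. In 7 members 786 and 621 of the reads overlapped one. In RPSA, SNORA6 at chr3:39408389-39408539 held 184 and 119 reads under the RPSA entry and SNORA62 at chr3:39411054-39411206 held 90 and 80. In RPS2, SNORA64 at chr16:1962973-1963106 held 144 and 108. RPS12 contained SNORA33, SNORD100 and SNORD101, of which SNORD100 had the most, with 114 and 79. RPS3 contained SNORD15A (94 and 66) and SNORD15B (45 and 35). RPS13, RPS20 and RPS3A hosted SNORD14A and SNORD14B, SNORD54 and SNORD73A, with at most 26 reads each. The small RNAs' own gene entries also listed peaks there, such as 107 and 91 reads for SNORA6 and 128 and 66 for SNORA64, so the 2 entries describe the same place. These reads lay off the representative transcript, so they entered the members' totals but not the per-gene region shares on that transcript.

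Genes that act on the same particle but are not part of it were counted beside the members. All 19 assembly factors had peaks in both libraries, with a median of 92 and 82 reads. FBL, the methyltransferase of box C/D particles, held 447 and 496 reads, NOP56, its scaffold partner, 407 and 376, and IMP3, a processing factor, 195 and 283. Of the markers set down for the cell line, VIM had 494 and 517 reads, IGF2BP1 238 and 262, NEFM 75 and 68, LIN28B 48 and 73 and PAX2 10 and 16. Of 6 markers of other cell types, 5 had no reads and MYH7 had none in replicate 1 and 3 in replicate 2.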

How the data were processed

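The authors deposited 1 peak list for each of 2 libraries. Per the submitters' processing notes, cutadapt 4.2, UMI-tools 1.1.4, STAR 2.7.11 and GRCh38 were used, and CLIPper called the peaks, per the deposited files' own labels. Whether reads were collapsed by molecular identifier is not given in the sources used here. Each peak carries a gene identifier, a read number and the authors' p-value, which per the deposited files lay below 0.05. Peaks were called per library. The lists held 96682 and 105125 distinct peaks with at least 3 reads each.

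Reads were summed over the peaks of each gene, with peak positions written 1-based. Regions followed GENCODE 29, by the summit, in Python 3.11.15 with pandas 2.3.3, numpy 2.4.6 and scipy 1.17.1. The planned main rule called a base 3′ UTR if any coding isoform did, and a rule with the representative transcript alone was added after seeing the data because the planned one counts coding bases as 3′ UTR. Genes needed 10 mRNA reads for a share. Promoter sequences came from RefSeq. The steps were tested on simulated data.

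The members and lists were chosen with earlier results of these data known. All 28 members are named, with full values for the 8 with most and 3 with fewest reads, those with repeated UTR peaks, and those past 2-fold. The comparison lists were the large subunit, mitochondrial small subunit and assembly factor genes, UBB, and markers of HEK293T and of other cell types. Other ubiquitin genes are not reported here.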

Additional observations from a re-analysis of the deposited data

How the results depend on the processing

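With 1 group of 2 libraries and no control, no result here has a test, and values of RPS26 rest on 26 and 10 reads. No paired analysis was possible because there is 1 group. Leaving out each library in turn gave member shares of 0.967% to 1.04%, coding medians of 77.8% to 78.1%, 3′ UTR medians of 8.62% to 9.23%, relative positions of 0.379 to 0.425 and 32.5 to 33.2 pseudogene reads per 100. The member share of 1.01% became 1.23% with peaks at p of 1e-05 or less, 1.27% with peaks of at least 10 reads and 1.69% over protein-coding peaks. The planned coding median of 78.0% became 78.4% and 79.6% under those 2 peak filters, 76.7% with peaks counted once each, 88.0% with coding sequence first and 92.6% on the representative transcript. The 3′ UTR median of 8.92% became 9.42% and 9.49%, 12.9%, 0% and 0% in the same order. Members with a repeated 3′ UTR peak fell from 18 to 8 with coding sequence first and to 7 on the representative transcript, since bases coding in another isoform then leave the 3′ UTR. Coding bases under peaks of both libraries were 61.8% with p of 1e-05 or less, against 65.4%. Pseudogene reads per 100 were 27.2 under that filter, 29.9 with at least 10 reads and 32.3 with positions listed under 1 gene, against 32.9. Recurring peaks fell from 93.6% to 89.5% with an overlap of 50% of the peak, and the relative position was 0.480 over all coding summits, against 0.402. The cause was not tested for the others. The other 28 alternative values stayed within the spread of the libraries or within 1.5 times the count. Those without 1 library are among them and could not do otherwise. With 2 libraries, each value lies closer to their mean than their SD, so these values say nothing about stability.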

Other observations

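RPS27A encodes ubiquitin fused to a small subunit protein, and its message was set beside UBB, a gene for a chain of ubiquitin repeats. UBB held 1452 and 1341 reads, against 497 and 409 for RPS27A. Placed by the summit, all of the UBB reads on its mRNA lay in coding sequence in both libraries, as did all of those of RPS27A. Reads that match several ubiquitin repeats cannot be told apart between these genes, so the values are given without an order.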
